A study of Mus musculus with 5 samples.

Results

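The genes that encode the subunits of the transcription factor AP-1 were examined for SOX11 and SOX4 binding in mouse keratinocytes. The 9 genes were *Fos*, *Fosb*, *Fosl1*, *Fosl2*, *Jun*, *Junb*, *Jund*, *Atf3* and *Batf*. A peak was assigned to one of them when its centre lay in the gene body or within 10 kb of it, or when the nearest transcription start of any protein-coding gene was that of the member. By this rule 20 peaks of the 21270 in the SOX11 list and 4 of the 2669 in the SOX4 list belonged to AP-1 genes. *Jun* alone took 9 of the 20 SOX11 peaks, all of them distal. Each of the 4 SOX4 peaks overlapped a SOX11 peak, at *Fos*, *Fosl2*, *Jun* and beside *Junb*, as did 94.5% of the whole SOX4 list. *Jund* and *Batf* had no peak of either factor by the rule.

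The cells were primary keratinocytes from newborn Krt14-Cre;Sox11fl/fl;Sox4fl/fl mice whose labelled background is mixed 129SvEx:C57BL/6, with the Krt14-Cre parent of strain FVB/N, so both endogenous genes were deleted where the keratin promoter drives Cre, in every group, the control included. They were transduced with a lentivirus that expresses FLAG-tagged *Sox4* or *Sox11* on addition of doxycycline, and the tagged protein was precipitated with an antibody to FLAG. The binding therefore belongs to induced, tagged protein in cells that lack their own. There were 2 replicates for each factor and 1 control library, which its title calls input and its antibody field IgG. Each factor has 1 list of peaks that merges its replicates and gives positions without height or read count, so no spread between replicates, no depth and no test over samples can be given, and the values below are descriptions of these lists. The lists hold no expression, so the labelled cell type could not be checked against marker genes, and no statement about RNA from the AP-1 genes can be made. Positions are those of mm9, counted from 1. Intervals are 95% Wilson intervals and cover counting error only.

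AP-1 is a dimer of basic leucine zipper (bZIP) proteins. FOS proteins bind DNA only together with a partner, usually a JUN protein, while JUN proteins can also pair with each other, and the dimer recognises the near-palindrome TGAGTCA or, read from the other strand, TGACTCA. In skin, AP-1 subunits are expressed in distinct layers of the epidermis, are induced at wound margins and act on genes of proliferation, migration and terminal differentiation. SOX11 and SOX4 belong to the SOXC group, whose HMG box bends DNA at sites with the core ACAAAG or ACAATG. TEAD factors, the DNA-binding partners of YAP, recognise GGAATG.

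The sequences below show SOX11 peaks with a SOX core, with a SOX and an AP-1 core, or with none. Their choice does not reflect how often each occurs. They are the peaks that overlap a SOX4 peak and the peak nearest the top of the list for each gene, together with 1 distal *Jun* peak that was picked after its sequence was seen. All are mm9 sequence of the plus strand, and the capitals mark exact SOX cores (ACAAAG or ACAATG, or their reverse complements CTTTGT and CATTGT) and AP-1 cores (TGAGTCA or TGACTCA). The distal *Fos* peak at chr12:86790771-86791028 overlapped a SOX4 peak. The *Fosl2* promoter peak at chr5:32438096-32438353 was the earliest in the list of all 20. The downstream *Fosl2* peak at chr5:32485569-32485826 overlapped a SOX4 peak. The *Jun* peak at chr4:94818686-94818943 was the only one of 9 to overlap a SOX4 peak, and the *Jun* peak at chr4:94761350-94761607 had a SOX core that ran straight into an AP-1 core. The *Atf3* promoter peak at chr1:193007387-193007644 is shown as a peak with none of these cores.
*Fos*, 23.9 kb upstream: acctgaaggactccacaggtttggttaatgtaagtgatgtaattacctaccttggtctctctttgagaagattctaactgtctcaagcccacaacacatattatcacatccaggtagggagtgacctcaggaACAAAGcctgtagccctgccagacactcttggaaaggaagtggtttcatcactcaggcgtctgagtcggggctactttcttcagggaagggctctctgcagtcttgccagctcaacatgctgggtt
*Fosl2*, promoter: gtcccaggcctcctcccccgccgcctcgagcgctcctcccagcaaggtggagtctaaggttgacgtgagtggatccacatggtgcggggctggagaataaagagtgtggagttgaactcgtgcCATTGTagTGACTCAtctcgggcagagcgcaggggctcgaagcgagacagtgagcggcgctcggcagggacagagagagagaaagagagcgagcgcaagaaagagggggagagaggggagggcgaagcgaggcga
*Fosl2*, 46.9 kb downstream of the start: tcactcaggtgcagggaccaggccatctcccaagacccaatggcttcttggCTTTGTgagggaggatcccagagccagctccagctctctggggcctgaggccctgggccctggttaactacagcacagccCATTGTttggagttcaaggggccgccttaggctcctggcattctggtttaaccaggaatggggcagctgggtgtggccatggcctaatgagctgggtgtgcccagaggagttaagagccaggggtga
*Jun*, 99.9 kb upstream: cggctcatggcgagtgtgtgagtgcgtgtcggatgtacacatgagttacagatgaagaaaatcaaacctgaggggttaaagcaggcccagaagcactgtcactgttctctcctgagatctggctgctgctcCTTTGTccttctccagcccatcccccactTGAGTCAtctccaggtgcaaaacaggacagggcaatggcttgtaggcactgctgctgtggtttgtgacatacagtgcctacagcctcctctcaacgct
*Jun*, 42.6 kb upstream: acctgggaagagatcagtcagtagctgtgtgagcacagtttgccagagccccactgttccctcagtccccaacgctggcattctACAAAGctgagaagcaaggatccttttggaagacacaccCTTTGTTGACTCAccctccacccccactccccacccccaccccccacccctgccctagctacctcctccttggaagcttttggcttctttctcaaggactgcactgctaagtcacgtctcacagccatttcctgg
*Atf3*, promoter: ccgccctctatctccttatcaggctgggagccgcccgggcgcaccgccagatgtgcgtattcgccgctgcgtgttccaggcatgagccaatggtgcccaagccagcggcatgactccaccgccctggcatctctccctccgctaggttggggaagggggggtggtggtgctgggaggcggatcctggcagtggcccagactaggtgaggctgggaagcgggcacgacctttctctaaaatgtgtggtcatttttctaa

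For *Fosb*, *Fosl1* and *Junb*, only short stretches around the cores are shown. The *Fosb* peak, at chr7:19902319-19902576, held 1 core of each kind, in the stretches chr7:19902466-19902494 for SOX and chr7:19902337-19902366 for AP-1. The *Fosl1* intron peak, at chr19:5448502-5448759, held 1 SOX core, in the stretch chr19:5448573-5448601. The peak beside *Junb*, at chr8:87493604-87493861, held 2 SOX cores, in the stretches chr8:87493733-87493761 and chr8:87493761-87493789. All stretches are of the plus strand.
*Fosb*, SOX core: agagctgaggatACAAAGgaaagaaaggg
*Fosb*, AP-1 core: gtttctctaaggTGACTCAgatgccgagat
*Fosl1*, SOX core: aagtcctcatctCTTTGTgcgcagtatag
*Junb*, first SOX core: atgcttggaggtCTTTGTtttccatgttc
*Junb*, second SOX core: caatggtggccgCTTTGTccttgcccggg

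At least 1 SOX11 peak was assigned to 7 of the 9 AP-1 genes, against 57.0% of 22380 protein-coding genes under the same rule. At least 1 SOX4 peak was assigned to 4 of 9, against 13.0% of all genes. With the gene body and 10 kb around it alone, 5 of 9 had a SOX11 peak and 1 of 9 a SOX4 peak, against 50.7% and 10.2% of all genes, so near the genes the members' counts lay close to the background. Within 50 kb of the start every member had at least 1 SOX11 peak and 5 of 9 had a SOX4 peak, against 67.0% and 17.8% of all genes. The median number of SOX11 peaks per gene within 50 kb was 4 for the members and 1 for all genes, and within 100 kb it was 6 and 3. Since the members were proposed with results of these data known, these counts are not independent evidence of a preference for AP-1 genes. The number of other protein-coding starts within 50 kb of a member's start was 0 for *Fos*, *Jun* and *Batf*, 1 for *Fosl2* and *Atf3*, 4 for *Jund*, 6 for *Fosb*, 8 for *Junb* and 9 for *Fosl1*, against a median of 2 over all genes; its part in the counts was not tested.

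**Figure D1:**
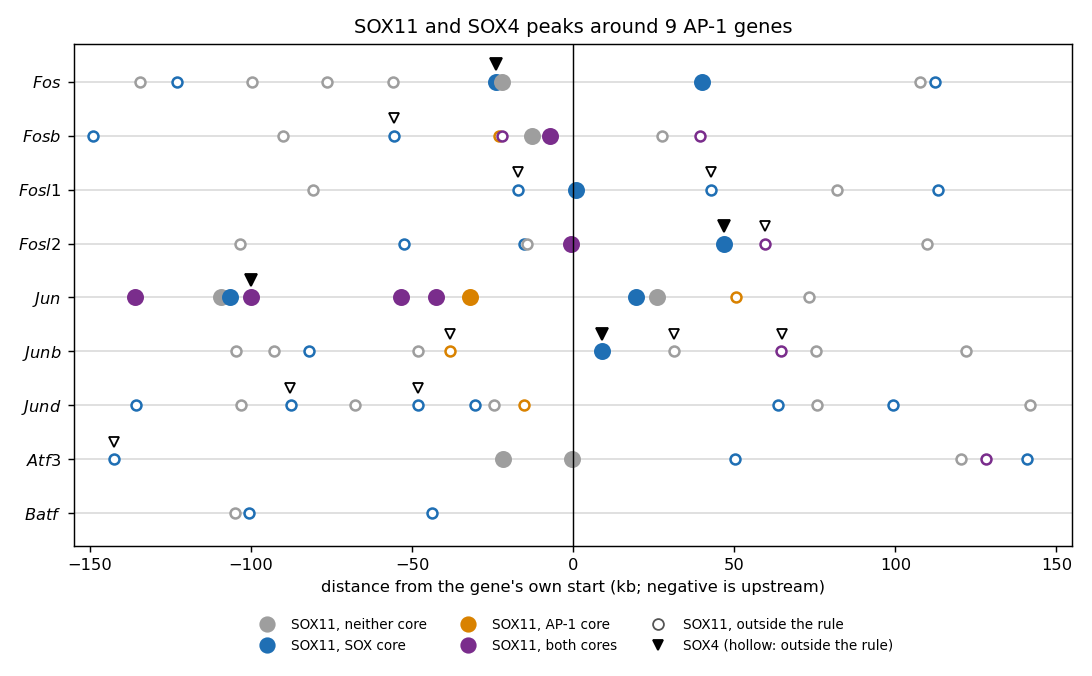
Positions of SOX11 peaks (circles) and SOX4 peaks (triangles) within 150 kb of the start of each AP-1 gene; the horizontal axis is the distance in kb in the direction of transcription, filled symbols belong to the gene by the rule and hollow ones do not, and colours give the motif cores. The 9 filled *Jun* circles all lie more than 19 kb from the start, while *Fosl1*, *Fosl2* and *Atf3* each have a filled circle within 1 kb of it.

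**Figure D2:**
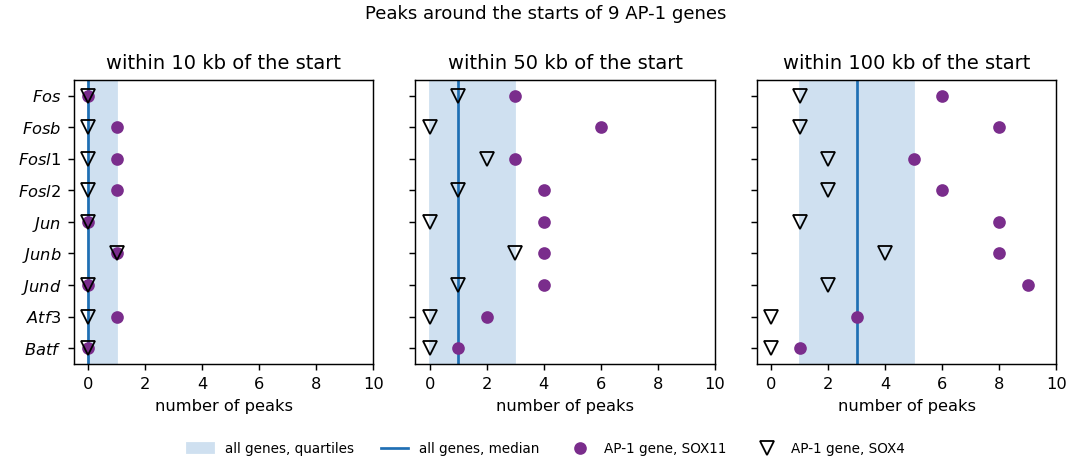
Number of SOX11 peaks (points) and SOX4 peaks (triangles) within 10, 50 and 100 kb of each AP-1 gene's start; the line and band are the median and quartiles of the SOX11 count over all 22380 protein-coding genes. Within 50 kb the points of 5 genes, *Fosb*, *Fosl2*, *Jun*, *Junb* and *Jund*, lie above the upper quartile of 3.

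The FOS genes differed in where the peaks lay. Of the 4, *Fos* is on the plus strand at chr12:86814840-86818223, *Fosb* on the minus strand at chr7:19888070-19895394, *Fosl1* on the plus strand at chr19:5447703-5455945 and *Fosl2* on the plus strand at chr5:32438845-32460204. *Fos* encodes the subunit that is switched on within minutes of serum, wounding or stress and is lost again soon after. It had 3 SOX11 peaks, at 23.9 and 22.0 kb upstream and 39.8 kb downstream of its start, and none within 10 kb. They were numbers 840, 2096 and 18715 of the SOX11 list. The first overlapped number 551 of the SOX4 list and held a SOX core with its centre 6 bp from the centre of the peak. The middle peak had neither core, and the downstream peak had a SOX core. *Fos* thus had more SOX11 peaks by the rule than 85.5% of all genes, none of them with an AP-1 core. All 3 were assigned by nearest start, in a stretch of 113 kb, longer than that of 76.1% of genes. The same 3 peaks lay within 50 kb of the start, more than at 73.3% of genes.

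*Fosb* encodes a close relative of FOS that is also induced quickly. Its 2 SOX11 peaks lay 12.6 and 7.05 kb upstream, at numbers 9776 and 7014. The nearer one had a SOX core and an AP-1 core whose centres were 128.5 bp apart, and the farther one had neither. No SOX4 peak lay within 50 kb of *Fosb*, and the closest was 55.6 kb upstream in an intron of *Ppp1r13l*, which encodes a regulator of p53. In the crowded neighbourhood of *Fosb*, 6 SOX11 peaks lay within 50 kb of its start, more than at 97.4% of genes, but 4 of these were nearer to *Ercc1*, *Rtn2* or *Vasp*. AP-1 cores were found in 4 of the 6.

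*Fosl1* and *Fosl2* encode FRA-1 and FRA-2, which lack the strong activation domain of FOS and are prominent in keratinocytes. Both genes were bound by SOX11 close to the start. The *Fosl1* peak lay in an intron 0.928 kb downstream of the start, at number 4190, and held a SOX core. The closest SOX4 peak to *Fosl1* was 17.0 kb upstream, near *AI837181*, and it overlapped SOX11 peak number 1372. The *Fosl2* promoter peak, 0.62 kb upstream and at number 568, held a CATTGT with its centre 3 bp from the peak's centre and a TGACTCA whose centre was 8.5 bp from that of the SOX core. Its sequence above shows both cores with 2 bases between them. The other *Fosl2* peak lay 46.9 kb downstream of the start and beyond the end of the gene. It was number 2578, overlapped SOX4 peak number 1199, and held 2 SOX cores and 1 TEAD core. The promoter peak of *Fosl2* was not in the SOX4 list, although it came earlier in the SOX11 list than the 4 AP-1 gene peaks that were.

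*Jun* had the most peaks of the 9 genes. It encodes the main partner of the FOS proteins, is itself a known AP-1 target and lies on the minus strand at chr4:94715725-94718913. Its 9 SOX11 peaks were more than 99.2% of genes had. Of these, 7 lay upstream, at 136, 109, 107, 99.9, 53.5, 42.6 and 31.95 kb from the start, and 2 downstream, at 19.4 and 26.1 kb. None was within 10 kb. The nearest neighbouring protein-coding starts are those of *Mysm1* at 73.1 kb on one side and *Fggy* at 505 kb on the other. The stretch nearer to *Jun* than to any other protein-coding start is therefore 289 kb long, larger than that of 90.8% of genes. Per 100 kb of this stretch there were 3.11 SOX11 peaks, against 0.806 per 100 kb over all chromosomes with peaks, and 81.3% of genes had a lower value. Other members had higher densities in shorter stretches, 7.45 per 100 kb for *Fosb*, 6.17 for *Fosl1* and 4.02 for *Fosl2*. Those densities rested on only 2, 1 and 2 peaks. *Fos* had 2.66, *Atf3* 2.60, and *Junb*, *Jund* and *Batf* 0, counted by nearest start. The count of 9 thus stood out among the members, and the density did not.

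AP-1 cores were found in 5 of the 9 *Jun* peaks, all upstream of the gene, and SOX cores in 6. Both cores were in 4 of 9, at 136, 99.9, 53.5 and 42.6 kb upstream, with the closest pair of core centres 92.5, 29.5, 157.5 and 6.5 bp apart. The peak 42.6 kb upstream held 2 SOX cores, the second of which abuts TGACTCA in the sequence above. The peak at 31.95 kb upstream had an AP-1 and a TEAD core and no SOX core. TEAD cores were also in the peaks 107 kb upstream and 19.4 kb downstream, each with a SOX core. The peaks 109 kb upstream and 26.1 kb downstream had none of these cores, and the former had the highest GC content of the 20, 69.4%. Only the peak 99.9 kb upstream, number 5882, overlapped a SOX4 peak, number 2044. These peaks are tied to *Jun* only as the nearest protein-coding start. When noncoding genes were counted as well, *Jun* was the nearest start for 0 of 9, and 6 of 9 lay inside *BC042782*, an annotated noncoding transcript, so which gene they act on was not measured.

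*Junb* and *Jund* encode the other JUN proteins, of which JUNB restrains proliferation in many cells and JUND is present at steady levels. *Junb* is on the minus strand at chr8:87500811-87502617 and *Jund* on the plus strand at chr8:73221638-73224515. The single SOX11 peak of *Junb*, 8.88 kb downstream of its start, was the farthest to be included by the 10 kb rule; the nearest to fall outside it, 12.6 kb upstream of *Fosb*, was kept because *Fosb* was its nearest start. The *Junb* peak lay at the promoter of the neighbouring *Prdx2*, which encodes a peroxide-scavenging enzyme, with its centre 23 bp from a *Prdx2* start. It was number 774 and overlapped SOX4 peak number 902. The assignment to *Junb* thus rests on distance alone. Of 4 SOX11 peaks within 50 kb of *Junb*, 3 overlapped a SOX4 peak, the highest number among the members, and the other 2 of these 3 lay nearest to *Best2* and *Rtbdn*.

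*Jund* had no peak by the rule, yet 4 SOX11 peaks lay within 50 kb of its start and 9 within 100 kb, the latter more than at 96.1% of genes. The closest was 15.4 kb upstream, number 8305, with an AP-1 core and with *Lsm4* as its nearest start. The closest SOX4 peak was 48.2 kb upstream, near *Pgpep1*, and it overlapped number 133 of the SOX11 list. The start of *Gm11175* is 1.12 kb from *Jund*, so the stretch in which *Jund* is the nearest start is only 11.8 kb long. The counts of 0 at *Jund* and 9 at *Jun* thus go with stretches of very different length, whose part in them was not tested.

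*Atf3* encodes a stress-induced bZIP protein that pairs with JUN proteins and often represses. The gene, on the minus strand at chr1:192994175-193007219, had 2 SOX11 peaks, numbers 7188 and 7682, the first in the promoter 0.297 kb upstream and the second 21.7 kb upstream. Neither held a SOX or AP-1 core, and the second had a TEAD core 2 bp from its centre. No SOX4 peak lay within 100 kb of *Atf3*. *Batf*, on the plus strand at chr12:87027619-87050037 and best known for pairing with JUN proteins in immune cells, was the member with the fewest peaks around it, with 1 SOX11 peak within 100 kb. That peak was 43.8 kb upstream, number 16095, held 2 SOX cores and was nearer to *Jdp2*. *Batf* and *Fos* lie on the same chromosome with their starts 213 kb apart and *Jdp2* between them, 126 kb from *Fos*. The closest SOX4 peak to *Batf*, at 237 kb, was the one upstream of *Fos*.

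Over the 20 SOX11 peaks of AP-1 genes, the shares with each motif core were close to those over the whole list, and the intervals held the whole-list value. A SOX core was in 13 of 20, or 65% (interval 43.3 to 81.9%), against 58.5% of all SOX11 peaks. In sequences of equal width 2 kb downstream the share was 35% for the members' peaks and 32.2% for all. An AP-1 core was in 7 of 20, or 35% (interval 18.1 to 56.7%), against 28.5% of all SOX11 peaks, and in the shifted sequences it was in 0 of 20 and 4.59%. Leaving out *Jun* lowered the share with an AP-1 core to 18.2%, or 2 of 11, so the higher value rested on that gene. For *Jun* alone it was 55.6% (interval 26.7 to 81.1%). Both cores were in 6 of 20, or 30% (interval 14.5 to 51.9%), against 17.2% of all. Neither core was in 6 of 20, against 30.2% of all. A TEAD core was in 5 of 20, against 22.8% of all and 13.4% of the shifted sequences. The cyclic AMP response element TGACGTCA, which ATF dimers bind, was in 0 of 20, which allows up to 16.1%, and was in 1.01% of all SOX11 peaks and 0.188% of the shifted sequences. The CArG box, the site of serum response factor in the promoters of immediate-early genes, was also in 0 of 20, in 1.19% of all and in 1.34% of the shifted sequences. No core contains another, and a missing core says only that its exact letters are not in the peak.

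**Figure D3:**
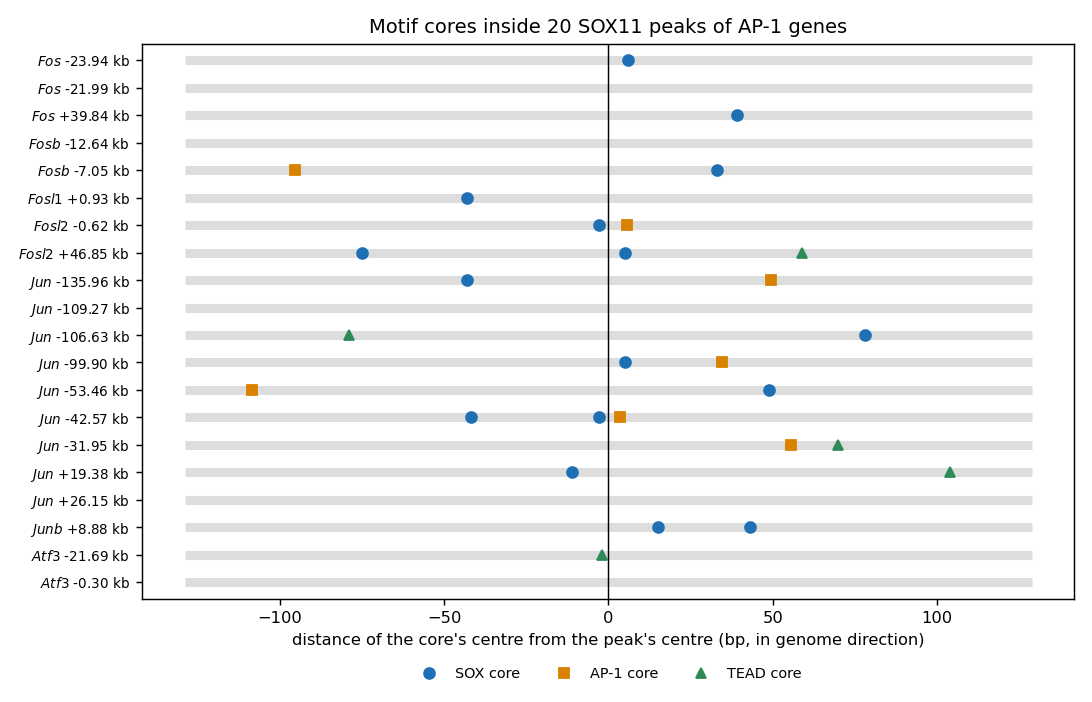
Each grey bar is 1 of the 20 SOX11 peaks of AP-1 genes, labelled with its distance from the gene's start, and symbols mark the centres of exact SOX, AP-1 and TEAD cores by distance in bp from the peak's centre, in the direction of the genome. SOX and AP-1 cores sit side by side near the centre in the *Fosl2* promoter peak and in the *Jun* peak 42.6 kb upstream.

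SOX cores lay nearer to the peak centres than AP-1 cores. In the 13 members' peaks with a SOX core, the median distance of the closest one from the centre was 15 bp, and over all SOX11 peaks with one it was 18 bp. In the 7 with an AP-1 core it was 49.5 bp, and over all it was 44.5 bp. The members therefore followed the order of the whole list. Of the 6 peaks with both cores, 2 had core centres at most 10 bp apart, those of the *Fosl2* promoter and *Jun*; this limit was chosen after the values were seen. Over all SOX11 peaks with both cores, 6.89% were that close, and in the shifted sequences with both cores 7.38% were, and the difference between these shares was not tested.

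Most peaks of AP-1 genes were distal. Between protein-coding genes lay 16 of 20, or 80% (interval 58.4 to 91.9%), against 40.0% of all SOX11 peaks. This place takes no account of noncoding genes, and 8 of the 16, all of *Jun*, lay inside an annotated noncoding transcript. The members' gene bodies range from 1.81 kb (*Junb*) to 22.4 kb (*Batf*), and that of *Jun* is 3.19 kb long. The part of gene length and of the nearest-start rule in the share between protein-coding genes was not tested. In promoters were 3 of 20, or 15% (interval 5.24 to 36.0%), against 23.3% of all. Without *Jun* it was 3 of 11, or 27.3% (interval 9.75 to 56.6%), and both intervals held the whole-list share. The promoters were those of *Fosl2*, *Atf3* and *Prdx2*, and the 1 remaining peak was in the *Fosl1* intron. The median distance to the nearest start was 25.02 kb for the members' peaks, 12.6 kb without *Jun* and 11.5 kb for all. Without *Jun*, 7 of 11 were between protein-coding genes, with an interval of 35.4 to 84.8% that holds the whole-list share. AP-1 cores were themselves more frequent in distal peaks, in 38.3% of the 8506 SOX11 peaks between protein-coding genes, and both cores in 23.3% of these. Both values lie inside the intervals of *Jun*, whose 9 peaks were all of this kind.

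**Figure D4:**
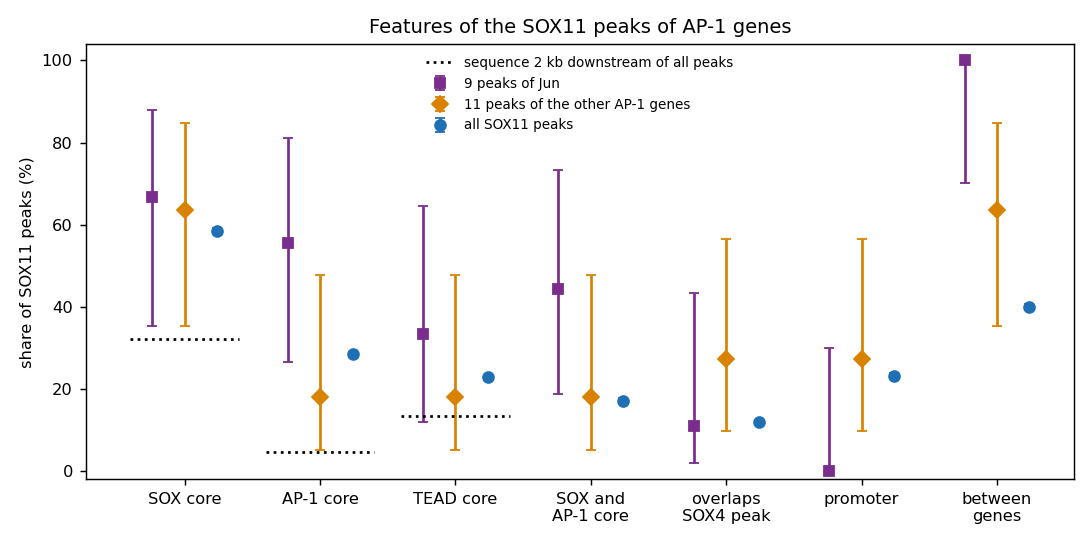
Share of SOX11 peaks with each feature, in percent, for *Jun*, for the other AP-1 genes and for all 21270 peaks; bars are 95% Wilson intervals and dotted lines give the share in sequences 2 kb downstream of all peaks. The intervals of *Jun* and of the other AP-1 genes overlap for every feature. For both cores the lower limit of *Jun*, 18.9%, is near the 17.2% of all peaks, and the interval holds the 23.3% of all peaks between protein-coding genes. For the place between protein-coding genes the *Jun* interval lies above the value of all peaks. *Jun* was set apart for its number of peaks, which surround the same gene and were assigned by nearest start, so its intervals are no test.

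A SOX4 peak overlapped 4 of the 20 members' SOX11 peaks, or 20% (interval 8.07 to 41.6%), against 11.9% of all SOX11 peaks. All 4 SOX4 peaks overlapped a SOX11 peak, as did 94.5% of the whole SOX4 list. Each of the 4 SOX11 peaks held at least 1 SOX core, and 1 of 4 held an AP-1 core, that of *Jun*. Over all SOX11 peaks that overlapped SOX4, 83.6% held a SOX core and 25.2% an AP-1 core. The overlap of the 4 SOX4 peaks with SOX11 was thus close to that of the whole SOX4 list and is not particular to these genes.

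The deposited lists are not in genomic order, and no score is given, so the place in the list was used in place of height; that it follows peak strength is not stated. In the first 25% of the SOX11 list 35.6% of peaks overlapped a SOX4 peak and in the last 25% only 2.18% did, while the share with a SOX core went from 79.7% to 51.7%. The 20 peaks of AP-1 genes spread from 2.67% to 91.8% of the list with a median of 35.0%. The interval of that median, from order statistics, was 19.7 to 69.9% and so included the middle of the list. The first 5 by place belonged to *Fosl2*, *Junb*, *Fos*, *Fos* and *Fosl2*. In the first 50% of the list were 10 of the 11 peaks of the other genes and 3 of the 9 of *Jun*, whose median place was 69.9%, against 19.7% for the others. In the first 25% were 6 of the 20 peaks, of which 5 held a SOX core and 1 an AP-1 core, and in the last 25% were 5, of which 3 held a SOX core and 3 an AP-1 core.

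**Figure D5:**
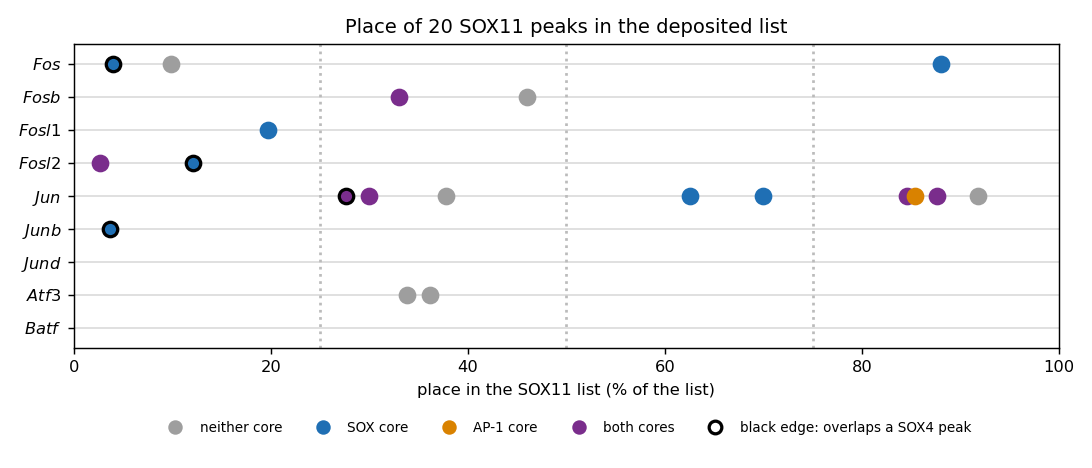
Place of each of the 20 SOX11 peaks of AP-1 genes in the deposited list, as a percent of its 21270 peaks; colours give the motif cores and a black edge marks overlap with a SOX4 peak. The peaks of *Fosl2*, *Junb* and the upstream peaks of *Fos* lie in the first 25% of the list, and 6 of the 9 *Jun* peaks lie beyond its middle.

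Genes that work with AP-1 were counted by the same rule, under which 57.0% of all genes had a SOX11 peak and 13.0% a SOX4 peak. Of 10 bZIP partners, 6 had a SOX11 peak, or 60%, close to the share of all genes. *Maf*, a large MAF factor, had 10 SOX11 and 3 SOX4 peaks in a stretch of 897 kb, while *Jdp2*, which pairs with JUN proteins and represses, and *Maff* had 3 SOX11 peaks each. *Batf2*, *Batf3*, *Mafg* and *Mafk* had none. Of 16 kinases and factors that act upstream of AP-1, 14 had a SOX11 peak, or 87.5%, and 2 a SOX4 peak, or 12.5%, the latter close to the share of all genes. *Mkl2* and *Mkl1*, which encode actin-regulated cofactors of serum response factor, had 9 and 8 SOX11 peaks. Their stretches were 319 and 199 kb long, and within 50 kb of the start each had 2 SOX11 peaks. *Elk3*, which encodes an ETS factor at serum response elements, and *Fbxw7*, whose product marks JUN for degradation, had 6 each. Their stretches were 123 and 510 kb long, and 6 and 2 SOX11 peaks lay within 50 kb of the start. The median stretch was 116 kb for the upstream genes and 45.5 kb for all genes, and its part in the counts was not tested. *Mapk3*, which encodes the kinase ERK1, and *Elk1* had none. The SOX4 peaks were assigned to *Elk3* and *Map2k7*, which encodes a kinase of the JNK pathway. The peak of *Map2k7* lay 20.2 kb from its start and was nearer to the start of another gene. The median number of SOX11 peaks per gene by the rule was 2 for the AP-1 subunits, 1 for the partners, 1.5 for the upstream genes, 2.5 for other immediate-early factors, 3 for genes driven by AP-1 and 1 for all genes. The median distance from the start to the closest SOX11 peak was 8.88 kb for the subunits, 0.110 kb for the upstream genes and 19.8 kb for all genes, and 13 of 16 upstream genes and 5 of 9 subunits had a SOX11 peak within 10 kb of the start, against 39.3% of all genes.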

How the data were processed

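Chromatin from keratinocytes that express FLAG-tagged SOX4 or SOX11 was precipitated with an antibody to FLAG, with 2 replicates per factor and 1 control library. The authors mapped the reads to mm9 with Bowtie2, removed duplicates with Picard MarkDuplicates, called peaks with HOMER in its factor style and subtracted blacklisted regions with bedtools. Versions, thresholds and the control given to HOMER are not given in the sources used here. The deposited values are peak coordinates, a value of another kind, with no count or height, and each list merges the replicates of its factor; the depth is unknown.

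Starts were read as 0-based. Protein-coding genes, transcript starts and sequence came from GENCODE M1 and NCBIM37, the same build as mm9. A gene's start was the 5′ end of its annotated body, and where a symbol had more than 1 gene the longest was used. A promoter spanned the 1 kb before a start and the 100 bp after it. Overlap meant at least 1 bp. Python 3.11.15 and pysam 0.24.0 were used to find exact cores on either strand, also in sequences shifted 2 kb downstream. Intervals are Wilson 95% intervals. No test was made, since no replicate is separate. Assignment, overlap and motif search were tested on simulated data.

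The members, lists and motifs were chosen with earlier results of these data known. All 9 members are named; coordinates are given for peaks that overlap a SOX4 peak and for the earliest peak per gene in its list. Of other lists, the 3 genes with most SOX11 peaks, with ties, and those with none are named, except 1 gene that is not reported here. Coordinates of the short stretches around cores follow the same rule.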

Additional observations from a re-analysis of the deposited data

How the results depend on the processing

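No paired analysis was possible because the replicates of each factor are merged in 1 list; for the same reason no replicate was left out. The 10 results were recomputed under 45 alternative values, of which 11 were chosen after seeing the data; 31 stayed within the error or within 1.5 times the count, and 14 moved. The number of SOX11 peaks of AP-1 genes, 20, became 5 with the gene body and 10 kb around it alone, 39 with 50 kb around it, 9 with the nearest start of any annotated gene and 13 in the first 50% of the list. The number of SOX4 peaks, 4, became 1, 10 and 2 under the first 3 of these. The number of AP-1 genes with a SOX4 peak, 4, became 1 with 10 kb alone and 2 with any annotated gene. Of all genes, 13.0% had a SOX4 peak by the rule and 10.2% with 10 kb alone. The share with a SOX motif fell from 65% to 10% with the 10-letter motif without mismatch, as it fell to 11.3% over all SOX11 peaks. The share with an AP-1 motif fell from 35% to 15% with its 10-letter motif without mismatch, and to 15% within 50 bp of the centre, where all SOX11 peaks gave 11.01% and 14.9%. The share in promoters rose from 15% to 60% among the 5 peaks in the gene body or 10 kb around it. The peak at the *Prdx2* promoter was among them. No share of all SOX11 peaks under this limit is given. The median number of SOX11 peaks, 4 within 50 kb of the start, was 1 within 10 kb. The counts of peaks thus depended on the rule of assignment, and why each value moved was not tested. The number of AP-1 genes with a SOX11 peak, 7 of 9 against 57.0% of all genes, ranged from 5 to 9. It was 5 with 10 kb alone, against 50.7% of all genes. It was 9 with 50 kb around the gene body, for which no share of all genes is given.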

Other observations

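Other immediate-early transcription factors, many of them switched on by the same signals as *Fos* and *Jun*, were counted by the same rule. Of 12 genes, 11 had a SOX11 peak by the rule and 4 a SOX4 peak, beside 57.0% and 13.0% of all protein-coding genes. *Myc*, which drives growth, had 30 SOX11 peaks and 7 SOX4 peaks in a stretch of 1443 kb in which it is the nearest protein-coding start. *Klf6* had 17 SOX11 peaks in 888 kb and *Klf4*, a factor of terminal differentiation in epidermis, had 11 in 696 kb. Per 100 kb these were 2.08, 1.91 and 1.58 peaks, beside 3.11 for *Jun*. In shorter stretches *Ier2* had 4.09, *Nr4a1* 3.33 and *Ier5* 2.85, named here after their values were seen. Those values rested on 1, 1 and 6 peaks by nearest start. A SOX11 peak lay within 10 kb of the start of 7 of the 12, against 39.3% of all genes. Of the 12, *Egr1* had none. SOX4 peaks were also assigned to *Ier5*, with 2, and to *Klf6* and *Ier2*, with 1 each.

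Of 12 genes known to be driven by AP-1 in keratinocytes or wounds, 10 had a SOX11 peak, or 83.3%, and 1 a SOX4 peak, or 8.33%, beside 57.0% and 13.0% of all genes. *Vegfa*, which encodes an angiogenic growth factor, had 8 SOX11 peaks and the SOX4 peak, *Ccnd1*, which encodes cyclin D1, had 7, and *Cd44*, which encodes a hyaluronan receptor, had 5. Their stretches were 213, 185 and 156 kb long, and 6, 1 and 4 SOX11 peaks lay within 50 kb of the start. *Mmp9*, which encodes a gelatinase, and *Lor*, which encodes the cornified envelope protein loricrin, had none by the rule. The median number of SOX11 peaks by the rule was 3 for these genes and 2 for the AP-1 subunits, and within 50 kb of the start it was 3 for these genes and 4 for the subunits. These lists were chosen with results of these data known.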
